A study of Mus musculus with 9 samples.

Results

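The genes described here encode, in the nucleus, subunits of the last 3 enzyme complexes of oxidative phosphorylation: the cytochrome bc1 complex (complex III), cytochrome c oxidase (complex IV) and ATP synthase (complex V). They were taken as every protein-coding gene of the count table whose symbol starts with Uqcr, Cox4, Cox5, Cox6, Cox7, Cox8 or Atp5, which gave 44 of 55011 genes. A further 10 symbols with these prefixes are annotated as pseudogenes and were left out. Sequenced RNA came from splenic CD8 T cells of wild-type (WT) mice, naive cells stimulated for 6 h on antibodies against CD3 and CD28 bound to the plate (4 μg/mL). The control group received no compound, the second group 20 mM D-2HG and the third 20 mM L-2HG from the start of stimulation, with 3 libraries in each. D-2HG and L-2HG are mirror-image forms of 2-hydroxyglutarate, and all 9 libraries share genotype, tissue, stimulus and time. The labels do not say whether replicates were separate mice or cultures, so the p-values measure the spread between these libraries, which may be technical.

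Complex III passes electrons from ubiquinol to cytochrome c, complex IV passes them on to oxygen, and both pump protons out of the mitochondrial matrix. ATP synthase lets the protons flow back through a ring of c subunits, whose rotation drives ATP formation in the catalytic head. T cells raise both glycolysis and mitochondrial respiration after activation, and a few subunits of each complex are made inside mitochondria from the mitochondrial genome, so assembly needs transcripts from both genomes.

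Total counts ranged from 562627 (L-2HG replicate 2) to 5731885 (control replicate 3) per library. The satellite-like predicted genes Gm10800 and Gm10801 took 0.910 to 5.35% of counts in control, 3.79 to 17.0% under D-2HG and 6.71 to 24.4% under L-2HG, and control replicate 2 and L-2HG replicate 2 were the highest of their groups. Summed CPM (counts relative to library totals scaled by TMM) of the 5 CD8 T cell markers Cd8a, Cd8b1, Cd3e, Cd3g and Trac was 2551 to 4176, 2054 to 2403 and 1864 to 2700.4 in the 3 groups. Of the B cell markers, Ighm measured 161 to 305, about 125 and 122 to 185 CPM, Cd79b did not pass 5.75 CPM in any library, and Cd79a and Ms4a1 stayed at or under 2.38 CPM and were at 0 in L-2HG replicate 2. The 3 dendritic cell markers summed to 5.13 to 8.10, 9.88 to 19.1 and 14.4 to 19.7 CPM, mostly Zbtb46, and the summed markers of CD4 T cells, NK cells, macrophages, neutrophils, red cells and platelets did not pass 9.36 CPM in any library. The part of these differences in the results that follow was not tested, and in bulk RNA fewer cells of a type and less RNA per cell cannot be told apart.

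The 44 genes took 1.68, 1.18 and 1.54% of counts in control replicates 1, 2 and 3. The share was 1.06, 1.06 and 0.850% under D-2HG and 1.12, 0.664 and 1.19% under L-2HG, so control replicate 2 lay close to the highest of the treated libraries. Of the 44 genes, 36 passed the filter on low counts and were tested. The other 8 had at most 54 counts over all libraries: the tissue isoforms Cox4i2, Cox6a2, Cox6b2, Cox7a1, Cox7b2, Cox8b and Cox8c, known from lung, muscle, testis and brown fat among others, and Cox5b-ps, a retrocopy annotated as protein coding. Cox6a2 and Cox8c had no count at all.

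With D-2HG, 19 of the 36 tested genes were lower than in control and 0 were higher (edgeR quasi-likelihood test with Benjamini-Hochberg adjusted p under 0.05 over all 10235 tested genes). Among all tested genes the share called lower was 10.5% and the share called higher 11.8% (without TMM scaling, 507 genes were lower and 1106 higher, and with an offset for transcript length and GC content 898 and 564). The median log2 fold change of the 36 genes was -0.66, against 0.04 over all tested genes, and 35 of the 36 estimates were negative. The count of 0 higher also held in DESeq2 and limma-voom, and at an unadjusted p under 0.05 the number higher was 1, Atp5l. CPM in the 3 D-2HG libraries lay below all 3 controls for 25 genes and above them for 1, where the share over all tested genes was 19.3% and 20.7%.

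With L-2HG, 13 of the 36 genes were lower and 0 were higher, against 8.38% lower and 9.48% higher of all tested genes (without TMM scaling 321 and 927 genes, with the offset 772 and 360). The median log2 fold change was -0.63, against 0.05 over all tested genes. No gene was higher by DESeq2 or limma-voom or at an unadjusted p under 0.05. CPM lay below all controls for 13 genes and above them for 0 (14.8% and 16.4% of all tested genes). Both comparisons use the same 3 controls, so they are not independent.

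**Figure D1:**
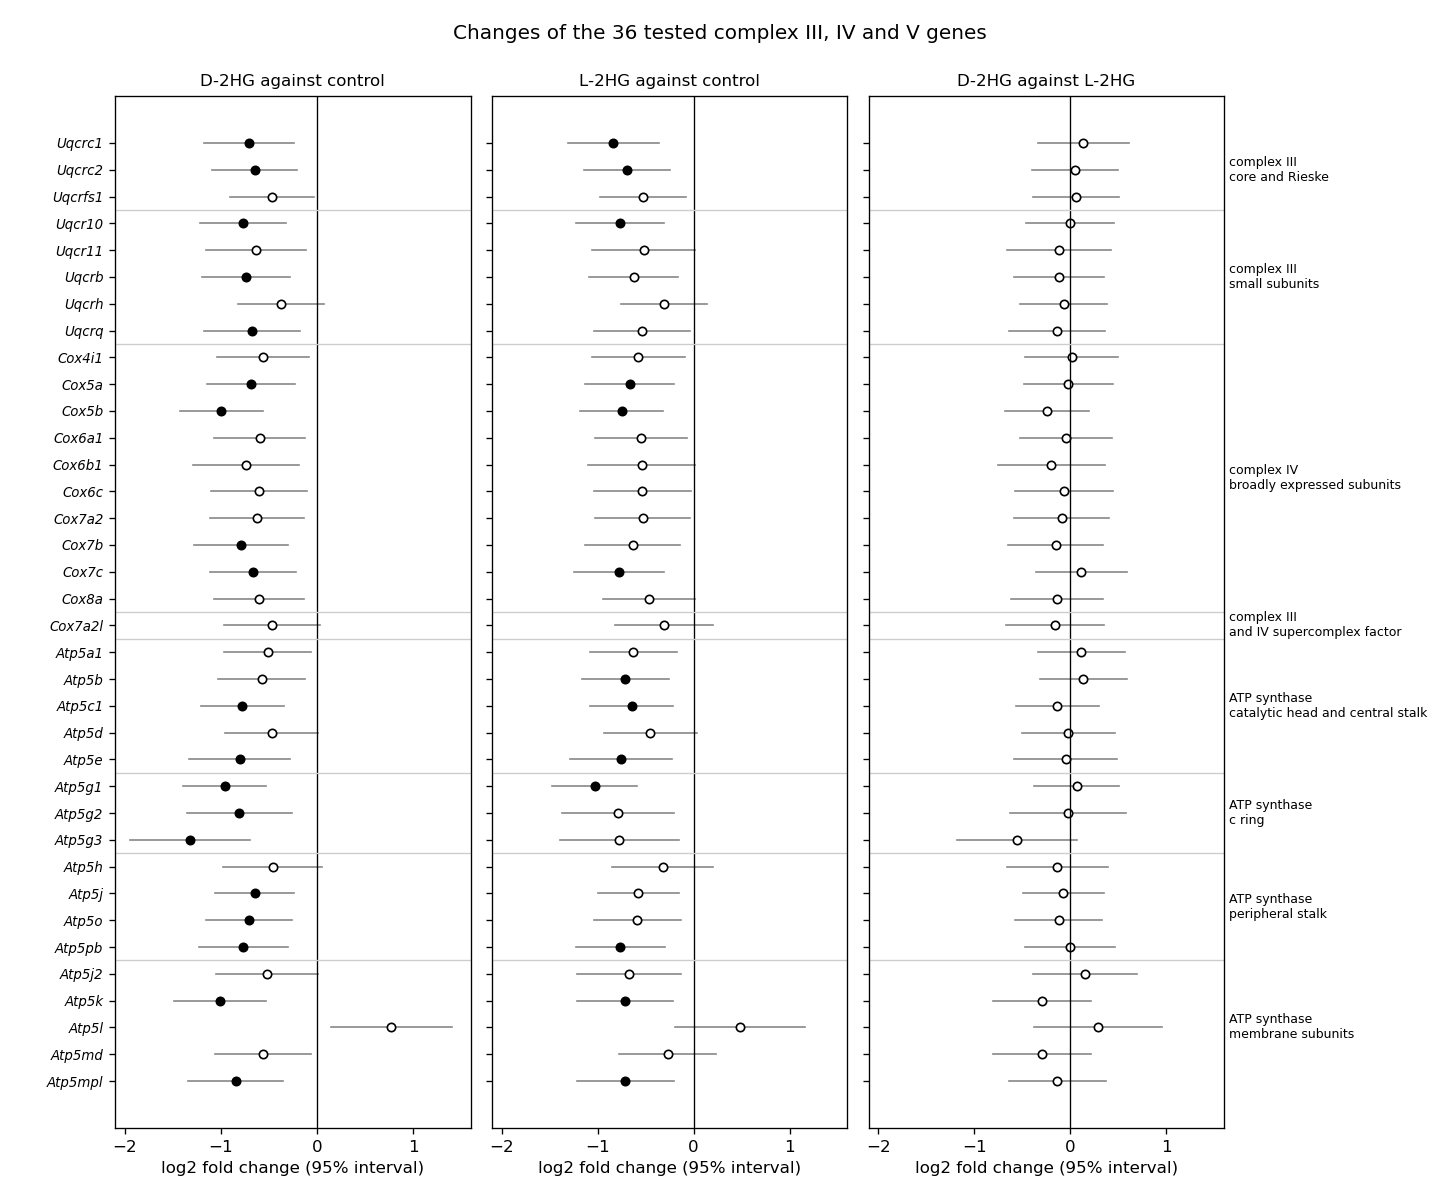
Log2 fold changes of the 36 tested genes (rows, by role) with 95% intervals from the edgeR fit, one panel for each compound set against control and one for the compounds set against each other; filled points passed an adjusted p under 0.05. In each of the first 2 panels 35 of the 36 points lie left of zero, with Atp5l on the right, and in the last panel no point is filled.

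The number of calls depended on which libraries were used. In control replicate 2 all 36 tested genes were lower than in the mean of control replicates 1 and 3, with a median log2 difference of -0.62, although all 3 had the same treatment. Against the same 2 controls the median was -0.73, -0.84 and -0.96 in the D-2HG libraries. It was -0.65, -1.23 and -0.60 in the L-2HG libraries, so L-2HG replicates 1 and 3 lay about where control replicate 2 lay. Over all tested genes these library medians were within 0.07 of zero. Without control replicate 2, 35 genes were lower with D-2HG and 32 under L-2HG. Without control replicate 1 the counts were 3 and 1, and without control replicate 3 they were 4 and 0. The share called lower of all tested genes moved in the same direction. With D-2HG it was 10.5% with all libraries, and 19.7, 1.74 and 1.94% without control replicate 2, 1 or 3. With L-2HG it was 8.38, 18.7, 0.631 and 0.325% in the same order. With D-2HG, 5, 5 and 4 genes were lower without D-2HG replicate 1, 2 or 3 (2.97, 3.78 and 2.37% of all tested genes). With L-2HG, 1 gene was lower without L-2HG replicate 1 and 1 without L-2HG replicate 2, 19 were lower without L-2HG replicate 3, and 6 and 7 were lower without D-2HG replicate 1 or 2. Of all tested genes 1.31, 2.64, 11.1, 4.95 and 5.61% were lower in these fits, in that order. Of the 19 genes called with D-2HG, Atp5g1, Atp5g3 and Cox5b (3 genes) kept their calls without each single library, and of the 13 under L-2HG 0 did. With an offset per library for transcript length and GC content, 4 of the 36 genes were lower with each compound. The share called lower of all tested genes was then 8.77% with D-2HG and 7.54% with L-2HG. Atp5l was higher with D-2HG, and the medians of the 36 genes were -0.24 and -0.27. The median transcript length of the 36 genes was 635 bases, against 2746 over all tested genes.

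**Figure D2:**
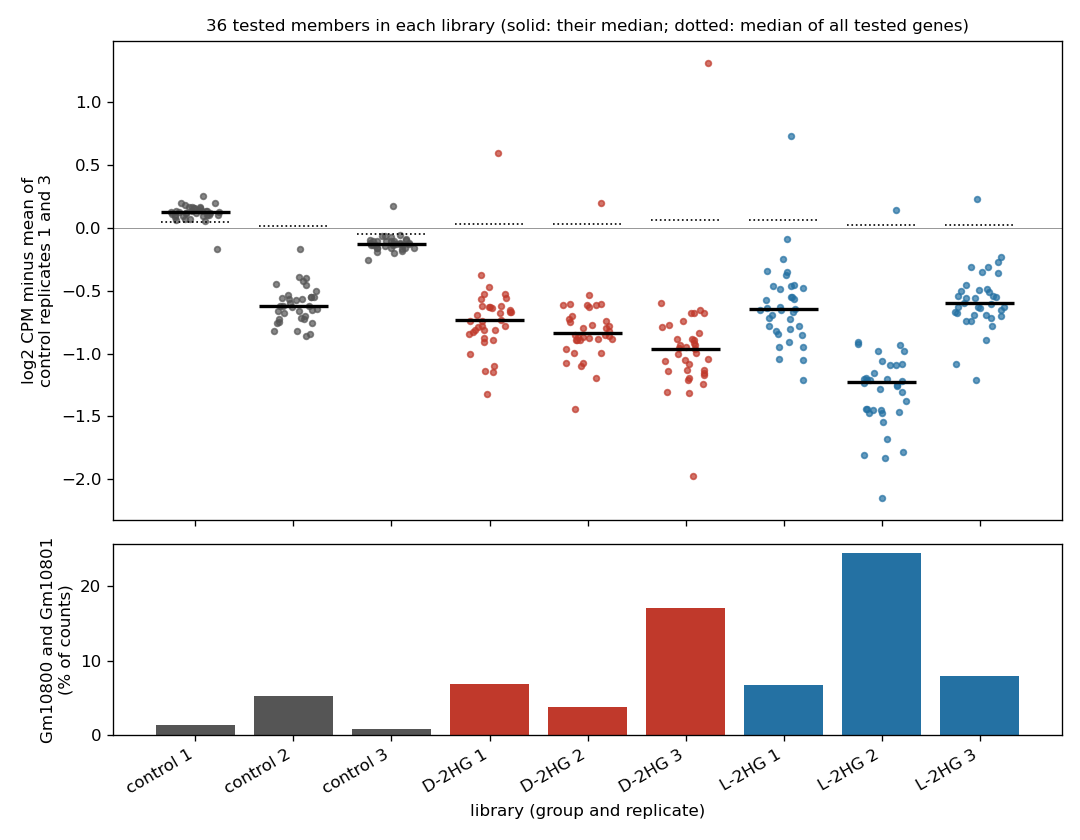
Upper panel, log2 CPM of each of the 36 tested genes (points) minus its mean in control replicates 1 and 3, by library; solid lines are the medians of the 36 genes and dotted lines the medians of all tested genes. Lower panel, percent of counts in Gm10800 and Gm10801: control replicate 2, at 5.35%, has a gene median of -0.62, and L-2HG replicate 2, at 24.4%, the lowest one of -1.23. D-2HG replicate 3, at 17.05%, has -0.96, so in each group the library with the highest percent has the lowest median. Across groups that order is not kept: D-2HG replicate 2, at 3.79%, has -0.84, and L-2HG replicate 3, at 7.98%, has -0.60. A link was not tested.

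Promoter sequences of 4 of these genes are shown for what they hold of motifs known from respiratory chain promoters. They run from 250 bases before to 50 bases after the RefSeq transcription start (build GRCm38.p6), 5′ to 3′ on the gene's strand. Capitals mark matches on either strand to the NRF1 core GCATGCG, the ETS core CCGGAAG (the kind bound by the factor GABP, also called NRF2), the YY1 core AAGATGG and the ERR alpha element AAGGTCA. The NRF1 core nearly reads the same on both strands, so that its matches overlap and show as 1 run. Atp5k (chr5:108434350-108434649, minus strand), which encodes a small membrane subunit of ATP synthase, holds 3 of the motifs. Uqcrc1 (chr9:108936398-108936697, plus strand) holds the NRF1 core just after the start, and Atp5g3 (chr2:73911277-73911576, minus strand) the ERR alpha element. Cox5b (chr1:36691237-36691536, plus strand), the gene with the smallest adjusted p with D-2HG, has no match to the 4 motifs in this window. The windows of Atp5b and Atp5g1, which are not printed, have no match to the 4 motifs either.
Atp5k: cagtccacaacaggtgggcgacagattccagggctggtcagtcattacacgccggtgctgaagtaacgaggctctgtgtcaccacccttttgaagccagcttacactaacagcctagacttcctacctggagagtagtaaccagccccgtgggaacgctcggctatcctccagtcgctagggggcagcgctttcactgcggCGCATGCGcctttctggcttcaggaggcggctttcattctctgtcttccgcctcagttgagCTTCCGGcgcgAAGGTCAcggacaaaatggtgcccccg
Uqcrc1: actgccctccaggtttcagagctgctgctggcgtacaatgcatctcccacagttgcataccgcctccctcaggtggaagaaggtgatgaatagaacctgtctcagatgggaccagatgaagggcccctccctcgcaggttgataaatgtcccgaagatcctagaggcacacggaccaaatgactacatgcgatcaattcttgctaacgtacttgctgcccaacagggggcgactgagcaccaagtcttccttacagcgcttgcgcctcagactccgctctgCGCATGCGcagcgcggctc
Atp5g3: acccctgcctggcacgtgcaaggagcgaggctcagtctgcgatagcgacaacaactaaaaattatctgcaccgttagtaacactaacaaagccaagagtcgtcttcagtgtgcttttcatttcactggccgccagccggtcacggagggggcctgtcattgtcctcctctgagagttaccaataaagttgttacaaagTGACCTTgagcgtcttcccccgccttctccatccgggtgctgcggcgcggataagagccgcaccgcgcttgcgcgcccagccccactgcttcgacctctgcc
Cox5b: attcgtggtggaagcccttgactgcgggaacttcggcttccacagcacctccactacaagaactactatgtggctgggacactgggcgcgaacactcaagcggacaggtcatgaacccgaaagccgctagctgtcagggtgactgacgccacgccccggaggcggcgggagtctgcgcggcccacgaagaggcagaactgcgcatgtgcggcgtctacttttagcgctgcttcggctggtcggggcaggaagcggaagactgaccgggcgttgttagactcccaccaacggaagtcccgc
Of the 44 genes, 33 matched a window. The ETS core was in 11 of them (33.3%), against 9.92% of all genes with a window and 23.7% of the tested genes. The NRF1 core was in 7 (21.2%, against 4.00% and 8.16%), and the YY1 core and the ERR alpha element in 4 each (12.1%, against 7.28% and 9.33% for YY1 and 5.39% and 3.80% for ERR alpha). The GC box GGGCGG was in 12 (36.4%, against 38.2% and 69.8%) and the TATA box TATAAA in 4 (12.1%, against 15.7% and 8.18%). The second share in each pair is over tested genes, whereas the 33 include untested ones. Of the 29 tested genes with a window, the ETS core was in 11 and the NRF1 core in 7. The YY1 core and the ERR alpha element were in 4 each, the GC box in 10 and the TATA box in 2. A match shows only that these letters stand in the window, and no match only that these exact letters do not. Other forms of the motifs were not searched.

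Complex III had 5 of 8 tested genes lower with D-2HG and 3 under L-2HG. Uqcrc1 encodes core protein 1, which faces the matrix and belongs to the scaffold of the complex. Its CPM in replicates 1, 2 and 3 was 954, 559.7 and 843 in control, 489.8, 495 and 465 under D-2HG and 433, 322 and 555 under L-2HG. Every treated library lay below every control, with control replicate 2 and L-2HG replicate 3 nearly level. It fell with D-2HG, log2 fold change -0.70 (-1.17 to -0.23, edgeR adjusted p = 0.0327), and with L-2HG, log2 fold change -0.84 (-1.31 to -0.37, edgeR adjusted p = 0.0219), by edgeR's quasi-likelihood test, which also gives the adjusted p-values and 95% intervals that follow. Uqcrc2, the other core protein, fell with both compounds (changes on the log2 scale of -0.65 and -0.69, edgeR adjusted p-values of 0.0359 and 0.0352). Uqcrfs1 encodes the Rieske iron-sulfur protein, which carries electrons from ubiquinol towards cytochrome c1. It measured 579, 323 and 489 CPM in the controls, 339, 349 and 319 under D-2HG and 329, 269.9 and 363 under L-2HG. Control replicate 2 lay among the treated libraries, so the groups overlapped, and neither difference passed (-0.47 and -0.53, edgeR adjusted p = 0.108 and 0.0833).

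Among the small subunits of complex III, Uqcr10, Uqcrb and Uqcrq fell with D-2HG, and Uqcr10 under L-2HG. Uqcr10 measured 228, 134 and 186 CPM in the controls, 117, 111 and 94.2 under D-2HG and 115, 83.5 and 119.8 under L-2HG. The 6 treated libraries were all below the controls. The change was log2 fold change -0.77 (-1.22 to -0.32, edgeR adjusted p = 0.0200) with D-2HG and log2 fold change -0.76 (-1.22 to -0.30, edgeR adjusted p = 0.0276) with L-2HG. Uqcrq, the small subunit with the highest level per length, measured 455, 271 and 382 CPM in the controls, 249.8, 237 and 208 under D-2HG and 303, 151 and 297 under L-2HG. Its D-2HG libraries were all below the controls, whereas L-2HG replicates 1 and 3 were above control replicate 2. The change passed with D-2HG, log2 fold change -0.67 (-1.17 to -0.18, edgeR adjusted p = 0.0479), and not with L-2HG, log2 fold change -0.54 (-1.04 to -0.03, edgeR adjusted p = 0.113). Uqcrh, the hinge protein beside cytochrome c1, and Uqcr11 did not pass with either compound (D-2HG log2 fold changes of -0.37 and -0.63). Uqcrh has 2 annotated pseudogenes, which held 2 and 4 counts in all.

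Complex IV had 4 of its 10 broadly expressed subunits lower with D-2HG and 3 under L-2HG: Cox5a, Cox5b, Cox7b and Cox7c with D-2HG, and Cox5a, Cox5b and Cox7c with L-2HG. Cox5b encodes a matrix-side subunit that holds a zinc ion. It measured 301, 183 and 274 CPM in the controls, 130.0, 126 and 126 under D-2HG and 168, 124 and 155 under L-2HG. The D-2HG libraries were nearly level with each other and, like the L-2HG libraries, all below the controls. Cox5b fell with D-2HG, log2 fold change -0.996 (-1.43 to -0.57, edgeR adjusted p = 0.00500), and with L-2HG, log2 fold change -0.75 (-1.18 to -0.31, edgeR adjusted p = 0.0239). With D-2HG it kept its call under each of 21 alternative settings, as did Atp5g3 alone among the others. Cox4i1, the subunit through which ATP is known to inhibit the enzyme, had the highest level per length of complex IV. It measured 895, 539 and 745 CPM in the controls, 525, 495 and 458 under D-2HG and 553, 315 and 583 under L-2HG. The D-2HG libraries lay just below control replicate 2, and L-2HG replicates 1 and 3 just above it. Neither difference passed (-0.56 and -0.58, edgeR adjusted p = 0.0821 and 0.0828), nor did those of Cox6a1, Cox6b1, Cox6c, Cox7a2 and Cox8a (D-2HG log2 fold changes from -0.73 to -0.60, edgeR adjusted p from 0.0514 to 0.0743).

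Cox7a2l encodes a factor that joins complexes III and IV in supercomplexes. It measured 165, 93.4 and 152 CPM in the controls, 102, 97 and 98.6 under D-2HG and 125, 66 and 131 under L-2HG. Control replicate 2 was below the D-2HG libraries, so the groups overlapped. The differences of -0.47 under D-2HG and -0.31 under L-2HG did not pass (edgeR adjusted p = 0.154 and 0.365).

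ATP synthase had 10 of 17 tested genes lower with D-2HG and 7 under L-2HG. In the catalytic head and central stalk, Atp5c1 and Atp5e fell with D-2HG, and Atp5b, Atp5c1 and Atp5e with L-2HG. Atp5b encodes the beta subunit, which carries the catalytic sites. It measured 3579, 2200.2 and 3003 CPM in the controls, 1904, 1904 and 2085 under D-2HG and 1697, 1548 and 2115 under L-2HG. All treated libraries were below the controls, the highest being close to control replicate 2. The change was log2 fold change -0.58 (-1.03 to -0.13, edgeR adjusted p = 0.0585) with D-2HG, which did not pass, and log2 fold change -0.71 (-1.16 to -0.26, edgeR adjusted p = 0.0331) with L-2HG, which did. The difference between the compounds was 0.14 (-0.31 to 0.59, edgeR adjusted p = 0.956), so that the 2 calls do not show a difference between them. Atp5c1 encodes the gamma subunit, the rotating shaft. It measured 693, 428 and 581 CPM in the controls, 341, 345 and 307 under D-2HG and 351, 305 and 430.1 under L-2HG. Only L-2HG replicate 3 reached the level of control replicate 2. Atp5c1 fell with D-2HG, log2 fold change -0.78 (-1.21 to -0.35, edgeR adjusted p = 0.0158), and with L-2HG, log2 fold change -0.64 (-1.08 to -0.21, edgeR adjusted p = 0.0405). Atp5a1, the alpha subunit, and Atp5d, the delta subunit, did not pass with either compound (D-2HG log2 fold changes of -0.51 and -0.47). Atp5a1 and Uqcrc1 each pool 2 gene identifiers under their symbol, so how their counts split between identifiers is not known.

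The c ring is made from Atp5g1, Atp5g2 and Atp5g3, whose precursors differ in the import signal but yield the same mature c subunit. All 3 were lower with D-2HG and 1 of 3, Atp5g1, with L-2HG. The coding sequences of the mature subunit, the last 75 codons (225 bases) of each reading frame in GENCODE M21, are shown because the 3 genes code for 1 protein with different letters, which lets their reads be told apart. Capitals mark bases that differ from Atp5g3, 45 in Atp5g1 (80% identical) and 48 in Atp5g2 (78.7% identical), and the translations are the same. Atp5g1 lies at chr11:96068852-96075670, Atp5g2 at chr15:102662864-102672352 and Atp5g3 at chr2:73908447-73911326 (mm10), all on the minus strand.
Atp5g1: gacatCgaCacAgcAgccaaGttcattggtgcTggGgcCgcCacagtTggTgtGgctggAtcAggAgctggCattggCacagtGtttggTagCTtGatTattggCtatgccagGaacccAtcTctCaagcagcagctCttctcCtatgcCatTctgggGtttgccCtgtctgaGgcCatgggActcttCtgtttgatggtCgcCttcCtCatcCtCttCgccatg
Atp5g2: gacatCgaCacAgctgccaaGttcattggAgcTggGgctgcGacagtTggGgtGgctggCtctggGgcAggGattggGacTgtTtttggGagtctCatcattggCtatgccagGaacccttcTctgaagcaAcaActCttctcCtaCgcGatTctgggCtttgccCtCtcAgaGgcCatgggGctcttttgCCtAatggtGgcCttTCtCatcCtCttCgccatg
Atp5g3: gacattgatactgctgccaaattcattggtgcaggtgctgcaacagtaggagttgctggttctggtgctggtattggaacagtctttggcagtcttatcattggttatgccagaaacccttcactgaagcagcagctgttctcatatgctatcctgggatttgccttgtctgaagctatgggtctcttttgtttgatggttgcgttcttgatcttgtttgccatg
The longest stretch of identical letters between any 2 of the annotated transcripts used was 21 bases, between Atp5g1 and Atp5g2. The Atp5g2 transcript used is 441 bases long and holds coding bases only, so its untranslated parts were not compared. Atp5g3 had 907, 448 and 730.4 CPM in control replicates 1, 2 and 3, 326, 301 and 207 under D-2HG and 396, 237 and 575 under L-2HG. The D-2HG libraries were well below the lowest control, while L-2HG replicate 3 was above control replicate 2. Its fall with D-2HG was the steepest of the 36 genes, log2 fold change -1.32 (-1.95 to -0.70, edgeR adjusted p = 0.00903), and the difference with L-2HG did not pass, log2 fold change -0.77 (-1.40 to -0.15, edgeR adjusted p = 0.0725). Atp5g1 had 350.3, 194 and 267 CPM in the controls, 142, 146 and 129 under D-2HG and 132, 134 and 132 under L-2HG. The 6 treated libraries lay in a narrow band below the controls. Atp5g1 fell with D-2HG, log2 fold change -0.96 (-1.39 to -0.53, edgeR adjusted p = 0.00618), and with L-2HG, log2 fold change -1.03 (-1.47 to -0.59, edgeR adjusted p = 0.00895). The first call was lost with the offset for length and GC content (edgeR adjusted p = 0.0552) and the second without control replicate 3 (0.0590). Atp5g2, by far the least expressed of the 3, had 38.5, 26.2 and 31 CPM in the controls, 17.3, 19.1 and 18.7 under D-2HG and 20.1, 7.77 and 22 under L-2HG. All treated libraries were below the controls, and L-2HG replicate 2 was lowest. The change passed with D-2HG, log2 fold change -0.81 (-1.35 to -0.26, edgeR adjusted p = 0.0353), and not with L-2HG, log2 fold change -0.79 (-1.37 to -0.20, edgeR adjusted p = 0.0563).

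Counted per kilobase of transcript, Atp5g3 made up 64.6 ± 2.26% of the c ring transcripts in control, 58.1 ± 4.79% under D-2HG and 66.7 ± 8.51% under L-2HG (SD, n = 3). The share of Atp5g1 was 30.5 ± 1.53, 35.5 ± 3.58 and 28.9 ± 9.41%. These shares depend on the transcript chosen for each gene, and that of Atp5g2 holds coding bases only. The D-2HG share of Atp5g3 ran from 52.8 to 62.1%, overlapping the 62.0 to 66.4% of control by D-2HG replicate 1.

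In the peripheral stalk, which holds the head still against the rotor, Atp5pb, Atp5j and Atp5o fell with D-2HG and Atp5pb with L-2HG. Atp5pb, the b subunit, measured 708, 431 and 564 CPM in the controls, 357, 343 and 303 under D-2HG and 383, 231 and 379 under L-2HG. The treated libraries were all below the controls. The change was log2 fold change -0.77 (-1.23 to -0.30, edgeR adjusted p = 0.0224) with D-2HG and log2 fold change -0.76 (-1.23 to -0.30, edgeR adjusted p = 0.0293) with L-2HG. Atp5j, the F6 subunit, measured 444, 281 and 382 CPM in the controls, 258, 238 and 212 under D-2HG and 264, 219 and 257 under L-2HG. Here too the treated libraries were below the controls, with L-2HG replicate 1 closest to control replicate 2. The change passed with D-2HG, log2 fold change -0.65 (-1.06 to -0.23, edgeR adjusted p = 0.0276), and not with L-2HG, log2 fold change -0.57 (-0.99 to -0.16, edgeR adjusted p = 0.0520). Atp5h did not pass with either compound (log2 fold changes of -0.46 and -0.32). Atp5o, which encodes the oligomycin sensitivity subunit, overlaps a read-through gene and pools 2 identifiers, so its count is uncertain (D-2HG log2 fold change -0.71, edgeR adjusted p = 0.0267).

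Among the membrane subunits, Atp5k and Atp5mpl fell with both compounds. Atp5k, the e subunit, which helps ATP synthase form dimers, measured 87.2, 51.5 and 61.1 CPM in the controls, 33.2, 34.1 and 32.4 under D-2HG and 41.4, 31.1 and 45.9 under L-2HG. The D-2HG libraries were almost equal, and all treated libraries were below the controls. Atp5k fell with D-2HG, log2 fold change -1.01 (-1.49 to -0.53, edgeR adjusted p = 0.00813), and with L-2HG, log2 fold change -0.71 (-1.21 to -0.22, edgeR adjusted p = 0.0451). Atp5mpl, a small proteolipid of the complex, had the highest level per length of this group. It measured 447, 261 and 370.2 CPM in the controls, 232, 204 and 165 under D-2HG and 256, 139.8 and 252 under L-2HG. L-2HG replicates 1 and 3 came close to control replicate 2, and no treated library passed it. The change was log2 fold change -0.84 (-1.34 to -0.35, edgeR adjusted p = 0.0203) with D-2HG and log2 fold change -0.71 (-1.21 to -0.21, edgeR adjusted p = 0.0472) with L-2HG. Atp5j2 and Atp5md did not pass with either compound (D-2HG log2 fold changes of -0.52 and -0.57).

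Atp5l, the g subunit, went the other way and was chosen for description after its values were seen. It measured 11, 11 and 13.9 CPM in the controls, 18.6, 14.2 and 30.6 under D-2HG and 20.5, 13.6 and 14.5 under L-2HG, and had the lowest mean control level of the tested genes. Each D-2HG library was above each control, although replicate 2 only narrowly, while L-2HG replicate 2 fell within the controls. The difference with D-2HG was log2 fold change 0.78 (0.15 to 1.41, edgeR adjusted p = 0.0671) and that with L-2HG log2 fold change 0.49 (-0.19 to 1.16, edgeR adjusted p = 0.283), and neither passed. The table holds 3 annotated pseudogenes with symbols of this kind, and the split of reads among such copies is uncertain.

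**Figure D3:**
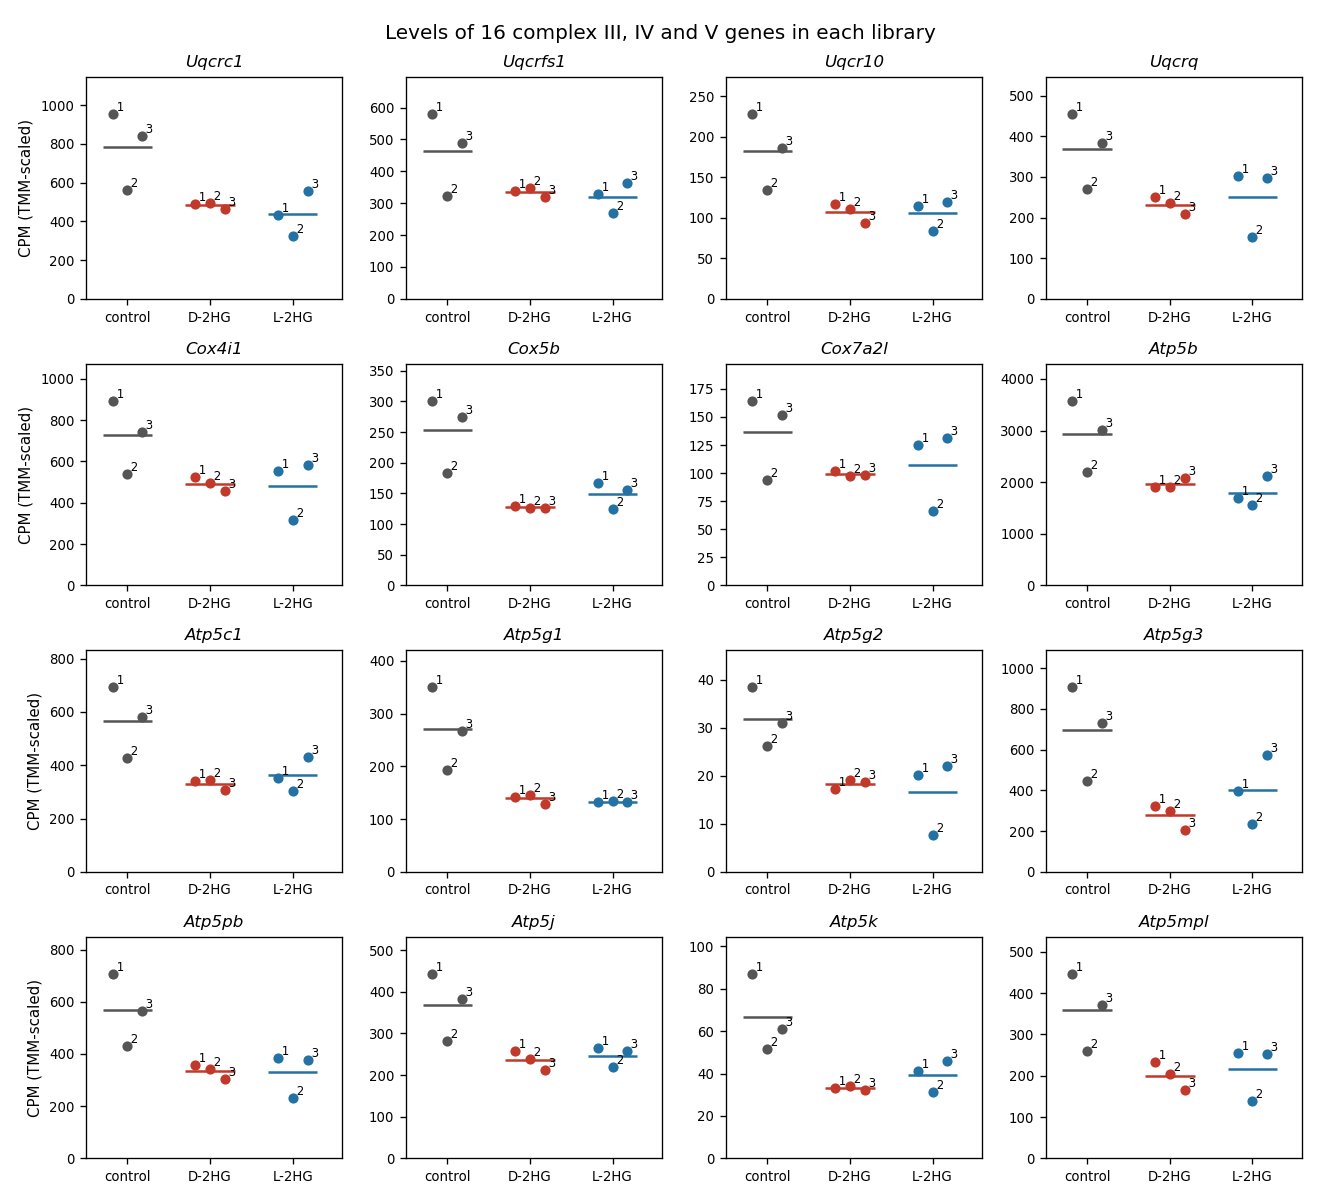
CPM (TMM-scaled) of 16 genes in each library on linear axes that start at 0; points carry their replicate number and lines are group means of 3 libraries. Control replicate 2 is the lowest control in each panel and, for genes such as Cox4i1, Cox7a2l and Uqcrfs1, lies near or among the treated libraries, while for Cox5b, Atp5g1 and Atp5k every treated library is below it.

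Compared per kilobase of transcript, Atp5b had the highest control level of the 44 genes, 1528 ± 362 CPM per kilobase (SD, n = 3). Atp5mpl, Cox4i1, Atp5g3 and Uqcrq followed at 982 ± 256, 975 ± 240, 974 ± 324 and 912 ± 229, differences that were within their spread. The next, Atp5d, stood at 616 ± 160. At the low end of the tested genes were Cox7a2l, Atp5g2 and Atp5l with 127, 72.3 and 21.9 CPM per kilobase. The value of Atp5g2 rests on a transcript of 441 bases without untranslated parts. Atp5b stayed first with both compounds (1025 ± 54.5 and 933 ± 154), and Atp5g3 went from place 4 in control to place 9 under D-2HG (389 ± 87.6) and place 5 under L-2HG (564 ± 237).

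The share of each gene in the summed CPM of the 44 genes of its own library takes out any shift they have in common, the one of control replicate 2 included. These shares and the genes given for them were chosen after the values were seen, and they carry no test. Atp5g3 made up 4.87, 4.01 and 4.63% in control replicates 1, 2 and 3 and 3.23, 3.06 and 2.25% under D-2HG, groups that did not overlap. With L-2HG it made up 3.83, 3.27 and 4.99%, overlapping the controls. Cox5b took 1.62 to 1.74% in control, 1.28 to 1.37% under D-2HG and 1.35 to 1.71% under L-2HG. Atp5g1 took 1.70 to 1.88%, 1.41 to 1.48% and 1.15 to 1.85%. On this scale the D-2HG libraries were below all controls for these 3 genes, and for Atp5g3 control replicate 2 was again the lowest control. Among the 36 tested genes, D-2HG shares lay below all controls for 8, lay above them for 6 and overlapped them for 22. For L-2HG shares these counts were 3, 6 and 27. Counting untested genes as well gave 9, 6 and 29 for D-2HG, or 4, 6 and 34 for L-2HG. The gene added below the controls for each compound was Cox7a1, which had 6 counts over all libraries. Full separation of 3 libraries from 3 has p = 0.1 by an exact permutation test of a single gene. No background share over other genes was counted. Uqcrh went the other way from Atp5g3, Cox5b and Atp5g1. It took 2.22 ± 0.0761% in control, 2.68 ± 0.0272% under D-2HG and 2.78 ± 0.261% under L-2HG (SD, n = 3). Uqcrfs1 took 2.89 to 3.11% in control, 3.36 to 3.56% under D-2HG and 3.15 to 3.72% under L-2HG. For these 2 genes both treated groups were above the controls on this scale, while their log2 fold changes in CPM were -0.37 and -0.47 under D-2HG. Atp5b, the largest single contributor, took 19.1 to 19.7% in control, 18.9 to 22.7% under D-2HG and 16.4 to 21.3% under L-2HG.

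**Figure D4:**
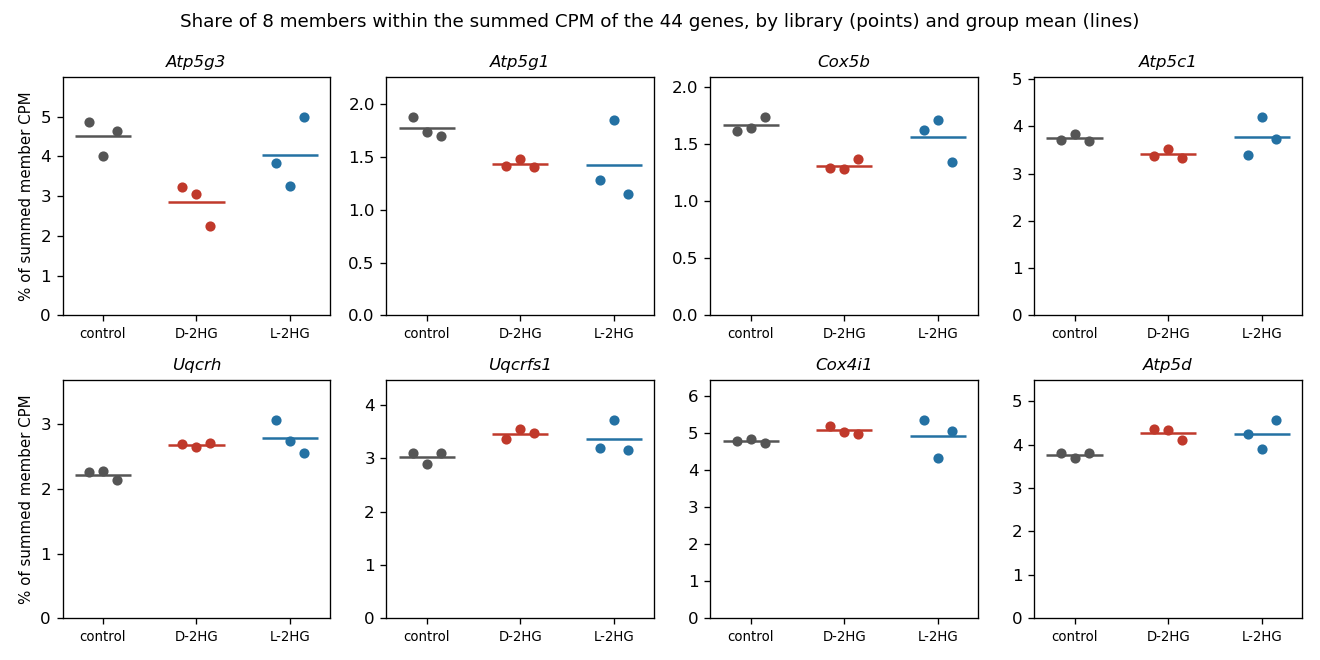
Percent of the summed CPM of the 44 genes taken by 8 of them, by library (points) and group mean (lines), on axes that start at 0. The D-2HG points of Atp5g3, Atp5g1, Cox5b and Atp5c1 lie below the controls and those of Uqcrh, Uqcrfs1, Cox4i1 and Atp5d above them, and L-2HG overlaps the controls for the first 4.

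Set directly against each other at the same dose and time, the 2 compounds, the only pair compared, differed for 0 of the 36 genes by edgeR's test (0.254% of all tested genes were lower with D-2HG than with L-2HG and 0.0489% higher). At an unadjusted p under 0.05 the number was 0, and DESeq2 and limma-voom also gave 0. The CPM ranges of the 2 groups overlapped for every one of these genes (8.13% and 7.78% of all tested genes did not overlap, lower and higher). The median difference was -0.07, with 26 of 36 negative. The largest was that of Atp5g3, -0.55 (-1.17 to 0.07, edgeR adjusted p = 0.771). For Atp5g1 it was 0.07 (-0.37 to 0.51, edgeR adjusted p = 0.975), and for Cox5b -0.25 (-0.68 to 0.19, edgeR adjusted p = 0.872). The 95% intervals of the 36 genes reached from -1.17 to 0.96 and had a median width of 0.96, and differences inside them were not detectable here. A fit without both control replicate 2 and L-2HG replicate 2 was chosen after seeing the data. In that fit Atp5g3 was lower with D-2HG than with L-2HG (log2 difference -0.79, edgeR adjusted p = 0.0403), as were 0.766% of all tested genes. No other setting called any of the 36 genes.

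Genes that work with these subunits were taken from fixed lists. Of the 5 tested subunits of complexes III, IV and V encoded by the mitochondrial genome, 4 were lower with D-2HG and 2 under L-2HG. By edgeR, DESeq2 and limma-voom, and at an unadjusted p under 0.05, 0 were higher. Transcripts encoded by mitochondria took 2.23 to 3.06% of counts in control, 0.992 to 1.88% under D-2HG and 1.19 to 1.83% under L-2HG. mt-Cytb, cytochrome b of complex III, measured 8762, 3637 and 6909 CPM in the controls, 1943, 2281 and 895 under D-2HG and 2243, 1021 and 2279.6 under L-2HG. All treated libraries were below the controls. It fell, with changes on the log2 scale of -1.91 and -1.80 (edgeR adjusted p-values of 0.00823 and 0.0152). mt-Co1, a catalytic subunit of complex IV, measured 4490.3, 3789 and 4073 CPM in the controls, 3899, 3791 and 3895 under D-2HG and 3573, 2740.0 and 2837 under L-2HG. Its D-2HG libraries overlapped the controls, while its L-2HG libraries were all below them. Neither difference passed (-0.09 and -0.43, edgeR adjusted p = 0.755 and 0.124). mt-Co3, mt-Co2 and mt-Atp6 were under 25 CPM in every library, and copies of mitochondrial DNA in the nuclear genome can share their reads.

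Of 4 tested cytochromes and other subunits outside the symbol rule, Cyc1, Cycs and Ndufa4 fell with D-2HG and Cycs with L-2HG. Cyc1, cytochrome c1 of complex III, and Cycs, cytochrome c itself, had changes on the log2 scale of -0.68 and -0.66 under D-2HG (edgeR adjusted p-values of 0.0278 and 0.0439). Of 6 tested genes for exchange of adenine nucleotides and phosphate, Slc25a4 and Slc25a5, the ADP/ATP carriers that supply ATP synthase with ADP, fell with both compounds, and Vdac3 under L-2HG. Slc25a5 measured 3485, 2133 and 2742 CPM in the controls, 1618, 1549.6 and 1568 under D-2HG and 1582, 1218 and 1833 under L-2HG, with no overlap between treated and control libraries. Its log2 fold change was -0.82 under D-2HG and -0.85 under L-2HG (edgeR adjusted p = 0.0167 and 0.0194).

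Of 31 tested assembly factors of complexes III, IV and V, 9 were lower and 1 higher with D-2HG, and 7 lower and 1 higher with L-2HG. Tmem242 and Tmem70, which help to build the c ring, had changes on the log2 scale of -1.13 and -0.68 under D-2HG (edgeR adjusted p-values of 0.0175 and 0.0227). Surf1, which acts early in complex IV assembly, and Atpaf2, a chaperone of the ATP synthase alpha subunit, also fell with D-2HG (-0.79 and -0.69, edgeR adjusted p = 0.0191 and 0.0236). The 1 that rose by edgeR, named for that reason after its values were seen, was Coa5, a complex IV assembly factor. Coa5 measured 118, 254 and 107 CPM in the controls, 312, 329 and 253 under D-2HG and 289.9, 342 and 232 under L-2HG. Control replicate 2 lay among the treated libraries and far above the other controls. The change was 0.91 and 0.85 (edgeR adjusted p = 0.0250 and 0.0411).

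Of 16 tested regulators of respiratory chain genes, 3 were higher and 2 lower with D-2HG and 0 either way with L-2HG by edgeR. With D-2HG these counts are near the 11.8% higher and 10.5% lower of all tested genes, and DESeq2 called 2 lower and 2 higher and limma-voom 4 and 8. At an unadjusted p under 0.05, 3 were lower and 3 higher with L-2HG. DESeq2 called 1 lower and 0 higher with L-2HG, and limma-voom 3 lower and 5 higher. Lrpprc, whose protein stabilises mitochondrial messenger RNAs together with that of Slirp, measured 51.5, 125 and 47.9 CPM in the controls, 244, 236 and 277 under D-2HG and 180.2, 194 and 73.9 under L-2HG. Control replicate 2 was above the other controls and above L-2HG replicate 3, and the D-2HG libraries were above all controls. Lrpprc rose with D-2HG (1.78, edgeR adjusted p = 0.00903) and Slirp fell (-0.82, edgeR adjusted p = 0.0244). Tfb1m, a methyltransferase of mitochondrial ribosomal RNA, fell (-1.10, edgeR adjusted p = 0.0317), and Pprc1, a coactivator of the PGC-1 family, rose (0.77, edgeR adjusted p = 0.0380).

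Complexes I and II and the ribosomes were counted for comparison. Of 36 tested nuclear genes of complex I, 24 were lower with D-2HG and 10 under L-2HG (median log2 fold changes of -0.75 and -0.64), and of 4 genes of complex II 2 with each. Of 77 tested mitochondrial ribosomal protein genes, 35 and 26 were lower (medians of -0.63 and -0.60), and of 81 cytosolic ribosomal protein genes 14 with each compound (medians of -0.48 and -0.51). With either compound 0 genes of these 4 lists were higher by edgeR's test, and 0 at an unadjusted p under 0.05. For complexes I and II the number was 0 by DESeq2 and limma-voom too. No test set these lists against complexes III, IV and V, whose medians of -0.66 and -0.63 stood between those of complex I and of the cytosolic ribosome.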

How the data were processed

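Polyadenylated RNA was primed with oligo(dT), amplified by PCR and tagmented, per the labels' protocols. Whole-number counts for each gene symbol were deposited, which the authors made with STAR 2.7.3a and featureCounts on mm10, per the submitters' processing notes, and strand settings are not given in the sources used here. The deposited signal of a normalized table is these counts over 1 size factor per library: recovered reads were whole within 0.001 for 100% of values and equal to the counts, so a count test on them is the same test. It served only for gene types.

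Counts were analysed with edgeR 4.0.16 (R 4.3.3): filterByExpr (minimum count 10; 10235 of 55011 genes), TMM, 1 mean per group over 9 libraries, robust quasi-likelihood F test and Benjamini-Hochberg adjustment over all tested genes. Intervals are 95% and per gene. The script was tested on simulated data. Depth, 562627 to 5731885 counts, limits low genes most in L-2HG replicate 2. Alternatives used DESeq2 1.42.0, limma 3.58.1 and other filters, scalings and libraries. No 2 libraries of a group were the same within sampling noise (chi-square per degree of freedom 6.04 to 43.8). Positions, lengths and coding sequences came from GENCODE M21 and promoters from RefSeq.

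The genes, lists and tests were chosen with earlier results of these data known. Per role, library values are given for the gene with the smallest adjusted p with each compound, the one with the highest level per length, and Uqcrc1, Uqcrfs1, Cox4i1, Cox5b, Cox7a2l, Atp5b, Atp5g1, Atp5g2 and Atp5g3. Of other lists at most 4 genes are named, those with the smallest adjusted p, and mt-Co1 and Coa5 were added to them after their values were seen. One marker gene is not reported here.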

Additional observations from a re-analysis of the deposited data

How the results depend on the processing

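Under 21 other settings no called gene changed direction, while the number of calls moved widely. Genes lower with D-2HG (19) came to 5 without TMM, 35 with limma-voom, 4 with the offset for length and GC content and 35 without both control replicate 2 and L-2HG replicate 2, and ranged from 3 to 35 when single libraries were left out. Genes lower with L-2HG (13) came to 2 without TMM, 28 without a count filter, 8 at a mean count of at least 50, 24 with DESeq2, 30 with limma-voom, 1 in a fit of the 2 groups alone, 4 with the offset and 31 without both libraries, and ranged from 0 to 32 with single libraries left out. The share called lower of all tested genes moved too. With single libraries left out it ranged from 1.74 to 19.7% with D-2HG and from 0.325 to 18.7% with L-2HG. It was 25.8 and 22.9% with limma-voom and 4.95 and 3.14% without TMM. With DESeq2 it was 13.4 and 12.1%, without a count filter 1.85 and 3.09%, and at a mean count of at least 50 14 and 8.99%. In fits of the 2 groups alone it was 11.6 and 1.4%, and with the offset 8.77 and 7.54%. Without both libraries it was 22.4 and 17.5%, and without Gm10800 and Gm10801 10.8 and 8.31%. The offset also gave 1 gene higher with D-2HG, Atp5l, and medians of -0.24 and -0.27. The median of all tested genes moved from 0.04 to -0.05 for D-2HG and from 0.05 to -0.05 for L-2HG. Without both libraries 1 gene, Atp5g3, was lower with D-2HG than with L-2HG. Medians with single libraries left out ran from -0.85 to -0.50 (D-2HG), from -0.82 to -0.46 (L-2HG) and from -0.22 to 0.07 (D-2HG against L-2HG). The cause of these shifts was not tested. The fits without 1 library of a group rest on the spread of the other groups as well, and the offset and the fits without both libraries and without Gm10800 and Gm10801 (20 and 14 genes lower) were chosen after seeing the data.

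With the replicate number as a block, 22 genes were lower with D-2HG and 22 with L-2HG (10.1 and 10.5% of all tested genes). Deviations of libraries with the same number correlated from -0.17 to 0.28 over all groups (0.0967, 0.283 and 0.123 between control and L-2HG), not above 0.1 for every pair, so the number was not taken to pair libraries. Not every library correlated best with its own number, and the labels do not say whether it marks a shared mouse or culture.

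At 3 libraries a group an exact permutation test of a single value cannot go below p = 0.1, and L-2HG replicate 2, with 562627 counts, is the least precise library.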
